A study of Homo sapiens with 6 samples.

Results

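The MYC network and ribosome biogenesis genes described here are 40 genes chosen by symbol: MYC with its dimer partners and their competitors, the nucleolar factors that build ribosomes, RNA polymerase I subunits, and enzymes known as MYC targets. All 40 were found in the deposited gene table of 13449 genes. The table came from SK-MEL-28, an established human melanoma cell line, transfected by lipofectamine with an siRNA against the long non-coding RNA DANCR (siDANCR, 3 libraries) or with a non-targeting control siRNA (control, 3 libraries). Both groups were therefore transfected cells of 1 line, and which DANCR siRNA was used is not given in the labels. Poly(A) RNA was sequenced, and the study asked how loss of DANCR changes gene expression in melanoma cells.

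Levels are given as the authors' mean of normalised counts across the 6 libraries, siDANCR and control pooled. It has no SD and no values for single libraries, so the levels below describe SK-MEL-28 cells across both transfections, and no siDANCR against control difference is given for any gene. Without a spread, no 2 neighbouring levels can be said to differ beyond error. Depth per library is unknown from these values, and the mean normalised counts of the table summed to 15059759.

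MYC is a basic helix-loop-helix leucine zipper transcription factor that binds DNA as a dimer with MAX, most strongly at the E-box CACGTG. MAX also pairs with the MXD proteins, MXI1 and MNT, which repress from the same sites. MYC is best known for driving growth: it raises transcription of ribosomal RNA by RNA polymerase I and of the many proteins that cut, modify and fold that RNA in the nucleolus. In melanocytes and melanoma the E-box is also bound by MITF, the lineage factor of pigment cells.

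Since CACGTG is the preferred site of MYC and MAX, it was looked for in RefSeq promoter windows of 300 bases (250 before to 50 after a start site, GRCh38.p14). Promoters were matched for 34 of the 40 genes, in 45 windows. BOP1, MYC, NOLC1, NOP58, RRP1B and RRP12 had no entry. CACGTG reads the same on both strands and was present in 19 of the 34 genes (55.9%), against 13.0% of the 9806 genes of the table with a promoter and 8.77% of all 27305 genes with one. By window, 42.2% of the members' windows held it, against 7.26% of all 35116 windows. A match says only that the letters are there. The list was drawn up around MYC and includes genes known as its targets, so its members were not chosen independently of this site.

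For each role, the member with the highest level among those with an E-box is given here, with ODC1 added after its values were seen because it alone held a pair. Each line gives 30 bases of the gene's own strand, 5′ to 3′, with the E-box in capitals. The promoter windows were matched to GRCh37 at a single place each, and coordinates are of that build.
MNT, chr17:2304530-2304559, minus strand: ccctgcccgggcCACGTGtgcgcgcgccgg
FBL, chr19:40336996-40337025, minus strand: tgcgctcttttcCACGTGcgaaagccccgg
GAR1, chr4:110736937-110736966, plus strand: gggccagaggggCACGTGgcgccggtgagt
WDR43, chr2:29117524-29117553, plus strand: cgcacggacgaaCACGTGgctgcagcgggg
PES1, chr22:30987867-30987896, minus strand: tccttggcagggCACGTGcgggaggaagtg
MYBBP1A, chr17:4458635-4458664, minus strand: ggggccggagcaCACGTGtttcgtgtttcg
DDX21, chr10:70716360-70716389, plus strand: ggccgggtgtccCACGTGgtccccggcgac
SRM, chr1:11120257-11120286, minus strand: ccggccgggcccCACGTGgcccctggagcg
ODC1, chr2:10588150-10588179, minus strand: ccgggccccgggCACGTGtgcggcgcgcct
ODC1, chr2:10588116-10588145, minus strand: ggcctgcggagaCACGTGgtcgccgagcgg

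The E-boxes of FBL, GAR1, WDR43, PES1 and MYBBP1A lay in an untranslated exon of the GENCODE canonical transcript. Those of MNT and SRM lay before the start of that transcript. Those of DDX21 and ODC1 lay in an intron of it, since their RefSeq windows belong to other start sites.

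Of the 20 E-boxes in the 19 genes, 10 lay after the start site, where the window holds only 50 bases, against 9.66% of the 1552 E-boxes of the table's genes. Of the 10 before it, 6 began within 50 bases of it, against 32.0% of the 1402 such E-boxes of the table's genes. The sites farther away were MXD4 at position -238, SRM at -199, MNT at -193 and LYAR at -64, counted from the start site as +1. All 7 small subunit assembly genes with a promoter held an E-box, at positions from -16 in UTP4 to 29 in BYSL. The large subunit assembly genes held it in 2 of 6, PES1 and NOP2. Counting only the bases before the start site, 9 members held it, against 11.6% of the table's genes. RRP9 was not among these, since its E-box begins at -5 and runs over the start site. CAGCTG, a related E-box chosen for comparison after the CACGTG count was known, was in 7 of the 34 genes (20.6%), against 22.1% of the table's genes. The median GC content was 65.2% in the members' promoters and 65.3% in those of the table.

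**Figure D1:**
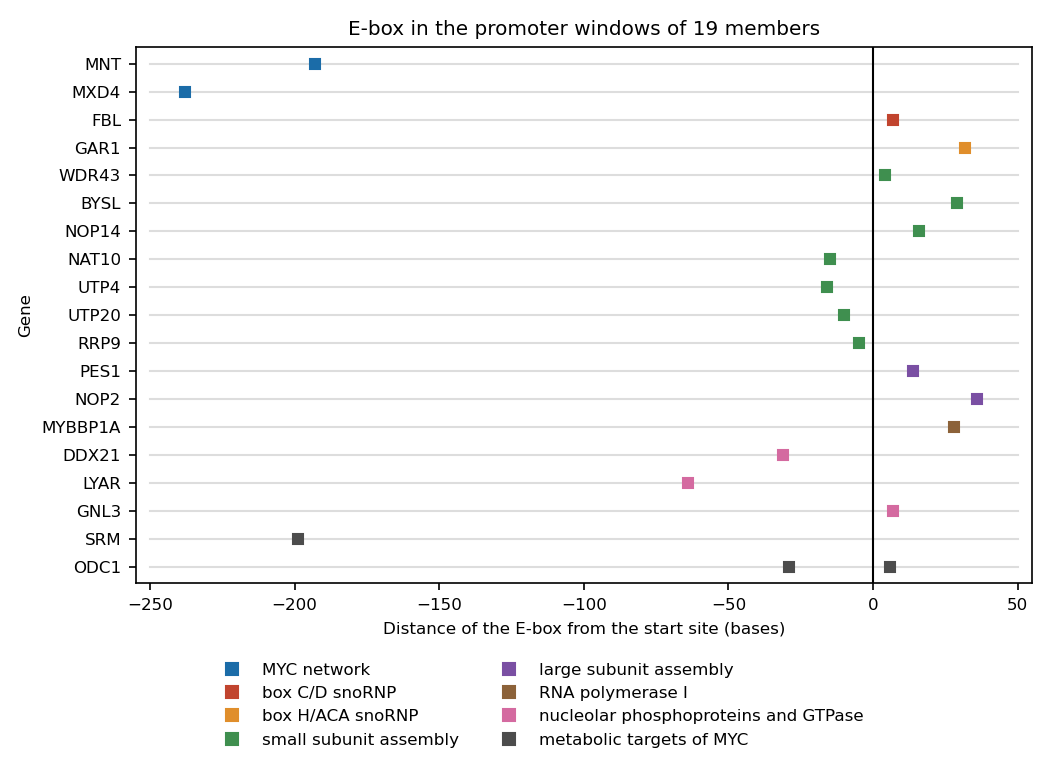
Distance in bases of each CACGTG E-box from the RefSeq start site (vertical line) for the 19 genes that hold one, coloured by role; each grey line is the window searched. Of the 20 squares 10 lie after the start and 6 within 50 bases before it, and MXD4, MNT and SRM stand far before it.

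To compare genes, the mean normalised count was divided by the length of the canonical transcript in kb (level per kb). The 40 genes had a median of 190.3 per kb, against 111.4 per kb over the 13161 genes of the table with an annotated length, a ratio of 1.71. Of the 40, 29 were above the table's median, which by construction divides the genes evenly. 15 were above the table's upper quartile of 269.6 per kb, and only RRP9 was below its lower quartile of 45.0 per kb. The highest and lowest members, NPM1 and RRP9, were 137-fold apart, but 21.8-fold with the union of all exons as the length and 50.3-fold with the longest transcript. SRM was then the highest member, 73.3-fold and 110-fold above RRP9. No test of the list was made.

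**Figure D2:**
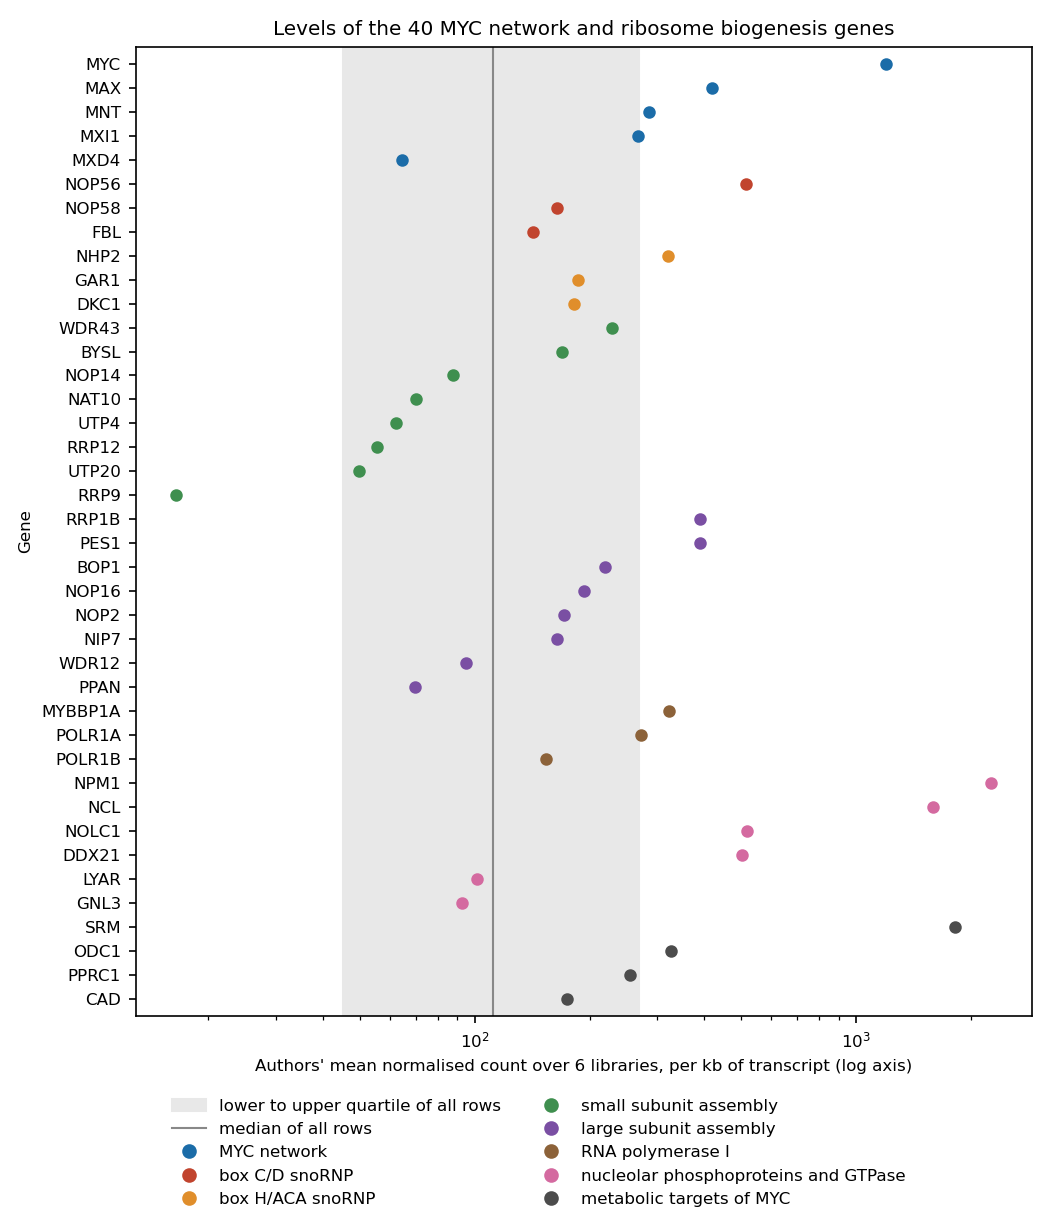
Level of each of the 40 genes, as the authors' mean normalised count over 6 libraries per kb of transcript (log axis), grouped and coloured by role; the grey band spans the lower to the upper quartile of all genes of the table and the line their median. Each point is 1 pooled value with no error. NPM1, SRM, NCL and MYC stand highest and RRP9 lowest, and 6 of the 8 small subunit assembly genes are left of the median.

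MYC was one of the most abundant transcripts of the list. Its mean was 4466 normalised counts, or 1200 per kb, higher than 95.6% of the table by level per kb. MAX, the obligate partner through which MYC binds DNA, had 841 normalised counts and 419 per kb, so MYC stood 2.87-fold above it, and 5.44-fold with the union of exons or 4.50-fold with the longest transcript as the length. The MAX partners that oppose MYC had lower levels per kb of canonical transcript, but the order of MAX against MNT and MXI1 turned with those other lengths, by which MAX was 0.83 and 0.93 times MNT and 0.86 and 1.00 times MXI1. MNT, the broadly expressed repressor, was at 286 per kb (1411 normalised counts) and MXI1 at 267 per kb (927 normalised counts). MXD4, linked to differentiation and exit from the cycle, was at 64.3 per kb (249 normalised counts), below the table's median and 18.7-fold below MYC.

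The other genes of the network filled in this order. MYCN was not among the table's genes, and MYCL, the other MYC paralog, had 26.8 normalised counts and 7.62 per kb, near the lowest value in the table (23.1 normalised counts). Of the other MAX partners, MXD3 was at 256 per kb, MGA at 41.1 per kb and MXD1 at 32.3 per kb. With the union of exons MXD3 was at 57.5 per kb, below the table's median, and with the longest transcript at 120 per kb. MLX, which pairs with the glucose-sensing factors, was at 277 per kb. Its partner MLXIP was the highest of these, at 1115 per kb and 9396 normalised counts, while MLXIPL was not among the table's genes. No MLXIP transcript is tagged canonical, so its longest was used. On that basis MYC was 1.08 times MLXIP per kb, and 0.94 times by the positions where a read fits in 1 exon, so their order is not settled. MYC stood above MAX and each MAX partner measured, and MYCL was near the bottom of the table. Of the 8 listed, 6 were in the table and 3 were above its median per kb, or 2 with the union of exons.

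The nucleolar phosphoproteins and GTPase genes had the highest median of the roles, 510 per kb of canonical transcript. NPM1 (nucleophosmin), a nucleolar chaperone of histones and ribosomal subunits, was the highest of all 40 at 2264 per kb, from 2989 normalised counts on a canonical transcript of 1320 bases. With the union of exons it was at 360 per kb, and with the longest transcript at 829 per kb, below SRM, MYC and NCL by both. NCL (nucleolin), which binds ribosomal RNA precursors, had the highest count of all, 6246 normalised counts, and 1592 per kb. Together NCL, MYC and NPM1 held 31.4% of the summed normalised counts of the 40 genes, though POLR1A, at 3406 normalised counts, had more than NPM1. NOLC1, a scaffold that carries snoRNPs in the nucleolus, and DDX21, an RNA helicase of ribosomal RNA transcription and processing, were alike at 518 and 503 per kb. GNL3 (nucleostemin), a nucleolar GTPase of proliferating cells, was at 92.3 per kb, and LYAR, a nucleolar zinc finger protein, at 101 per kb. Both were below the table's median with the canonical length, and LYAR was above it with the longest transcript.

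NPM1 shares its sequence with many processed copies, which makes its value uncertain. The annotation holds 49 of them under NPM1P names, and 5 were among the table's genes. NPM1P27, a copy of a single exon on chromosome 5, had 6178 normalised counts, more than NPM1 itself, and the other 4 had between 69.4 and 198. The sources used here do not say how reads that fit several places were assigned. NHP2P1 had 27.9 normalised counts, and annotated copies of NOP56, PES1, NIP7, NCL, NOLC1, LYAR and SRM were not among the table's genes.

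The box C/D snoRNP methylates ribosomal RNA at sites chosen by its guide RNA, and its 3 members were all above the table's median. NOP56, a core scaffold protein, was at 514 per kb. Its partner NOP58 was at 165 per kb, and FBL (fibrillarin), the methyltransferase, at 142 per kb, 3.61-fold below NOP56. That distance was 2.65-fold with the union of exons as the length and 2.89-fold with the longest transcript. SNU13, the first protein to bind the guide RNA, was at 1090 per kb and stood highest among the other snoRNP genes, of which NAF1, an H/ACA assembly factor, was lowest at 140 per kb.

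The box H/ACA snoRNP turns uridine into pseudouridine, and its 3 members were all above the table's median. NHP2 was at 322 per kb, GAR1 at 187 per kb and DKC1 (dyskerin), the pseudouridine synthase, at 182 per kb. The 1.76-fold distance of NHP2 over DKC1 was 3.47-fold with the union of exons as the length and 3.65-fold with the longest transcript, and DKC1 was below the table's median by both.

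The small subunit assembly genes had the lowest median of the roles, 66.1 per kb, with 6 of 8 below the table's median. Only WDR43, a protein of the t-UTP group that acts at the start of pre-ribosomal RNA processing, at 229 per kb, and BYSL (bystin), a late 40S assembly factor, at 169 per kb, were above it. NOP14, a processome core protein, was at 87.8 per kb, and NAT10, which acetylates 18S ribosomal RNA, at 70.1 per kb. UTP4, another t-UTP protein, was at 62.1 per kb, RRP12, an export factor, at 55.3 per kb, and UTP20, a very large processome protein, at 49.6 per kb. RRP9, a U3 snoRNA-binding protein, was at 16.5 per kb, from 25.4 normalised counts, so it lay just above the lowest mean in the table, 23.1. The other small subunit genes were also spread about the median, with 12 of the 30 measured above it. They ran from IMP3, a U3 protein, at 871 per kb down to EMG1, an 18S methyltransferase, at 14.1 per kb, with UTP3 highest by the union of exons and IMP4 by the longest transcript.

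The large subunit assembly genes had a median of 183 per kb, and 6 of 8 were above the table's median, or 5 with the longest transcript. RRP1B and PES1 (pescadillo) were both at 389 per kb. PES1 forms the PeBoW complex with BOP1 and WDR12, which matures the ribosomal RNAs of the large subunit: BOP1 was at 219 per kb and WDR12 at 94.6 per kb, 4.11-fold below PES1 and 2.45-fold with the union of exons. WDR12 is annotated with a canonical transcript of 8068 bases. NOP16 was at 194 per kb, NOP2, a 28S methyltransferase, at 171 per kb, and NIP7, a pre-60S factor, at 165 per kb. NOP16 was below the table's median with the union of exons, and NIP7 with the longest transcript. PPAN was lowest at 69.5 per kb, and its gene overlaps the readthrough gene PPAN-P2RY11 on the same strand, so its value is uncertain. Among the other large subunit genes, 16 of 27 were above the median, between RRS1 at 478 per kb and NVL at 23.1 per kb.

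RNA polymerase I makes the long ribosomal RNA precursor. POLR1A, its largest subunit, was at 273 per kb and 3406 normalised counts, and POLR1B, the second largest, at 153 per kb, 1.78-fold lower. MYBBP1A, a nucleolar MYB-binding protein that also acts in pre-ribosomal RNA processing, was at 324 per kb. All 3 were above the table's median. Of the other polymerase I subunits and initiation factors, 6 of 11 were above it, from POLR1D, a subunit shared with RNA polymerase III, at 1476 per kb of a canonical transcript of 693 bases down to TAF1A, of the promoter selectivity factor, at 35.6 per kb. POLR1D was at 82.8 per kb with the union of exons and 223 per kb with the longest transcript, by which POLR1F, another subunit, was the highest at 323 and 328 per kb.

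The metabolic genes known as MYC targets were all above the table's median. SRM (spermidine synthase) was at 1815 per kb, from 2287 normalised counts on a transcript of 1260 bases. ODC1 (ornithine decarboxylase), which makes the putrescine that SRM uses, was at 326 per kb, 5.56-fold lower. PPRC1, a coactivator of mitochondrial and growth genes, was at 255 per kb, and CAD, which starts pyrimidine synthesis, at 174 per kb. Of the 7 polyamine and pyrimidine neighbours, 5 were above the median. SAT1, which breaks polyamines down, was highest at 1829 per kb, and DHODH, the mitochondrial pyrimidine enzyme, was lowest at 25.0 per kb.

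**Figure D3:**
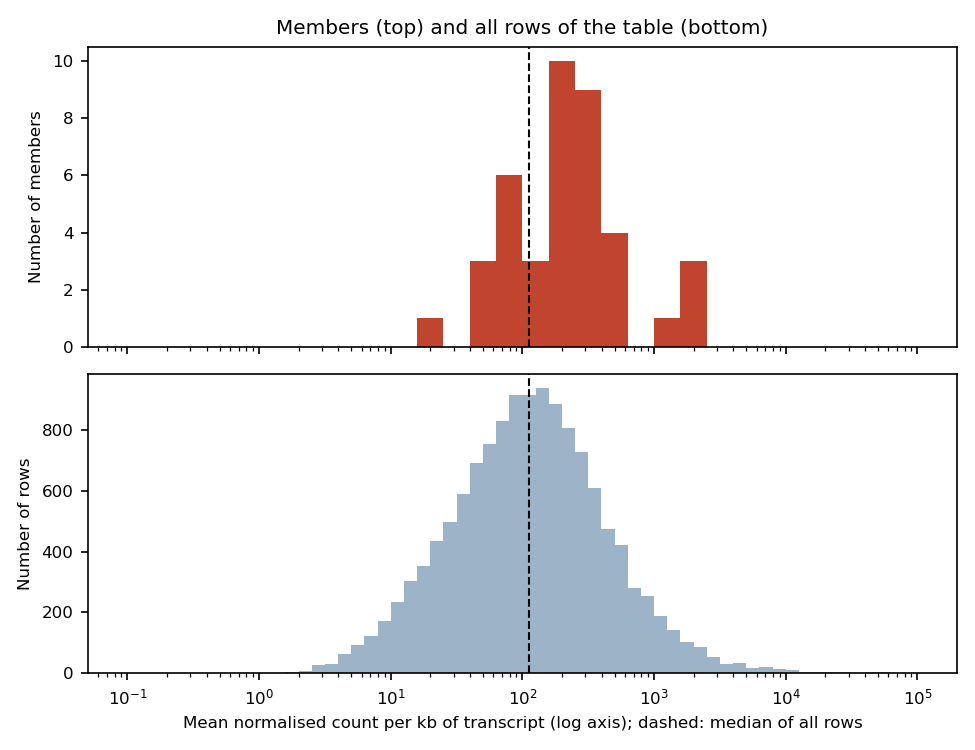
Number of genes by level per kb (log axis) for the 40 members above and all genes of the table with a length below; the dashed line is the table's median of 111.4 per kb. The members lie inside the table's range, with 29 right of the line, 4 above 1000 per kb and RRP9 alone at the low end.

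The members are transcripts of many short exons. Reads were 150 bases long, and the share of 150-base windows of the canonical transcript that lie in a single exon had a median of 37.2% in the 40 members, against 67.1% over 11423 protein coding genes of the table. 30 of the 40 were below the protein coding median. RRP9 had 1.58% of such windows and FBL 4.51%, the lowest of the list, while MYC had 91.7%. Small subunit assembly genes had a median of 17.4%, and the MYC network 85.4%. Across the 40 members this share and the level per kb had a Spearman rho of 0.36, and across the protein coding genes -0.04. The points of each correlation share the same libraries and transcript models. The submitters' processing notes name Bowtie, which does not split reads over introns, and the counting of reads over exon junctions is not given. Its part in the low values was not tested.

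Where only positions at which a 150-base read fits in 1 exon were counted as length, an alternative added after seeing the data, 35 of the 38 members with at least 100 such positions were above the table's median, all 7 small subunit assembly genes with a value among them. The median of those small subunit genes was then 390 per kb of such positions, above the 338 of the MYC network, so they were no longer the lowest role. The whole mean normalised count was still the value divided, so genes with a small share of such positions gain most by construction. Only MXD4, WDR12 and PPAN were below the table's median. The distance of PES1 over WDR12 was then 16.9-fold, and that of SRM over ODC1 10.8-fold. RRP9 and FBL had too few such positions to be given.

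**Figure D4:**
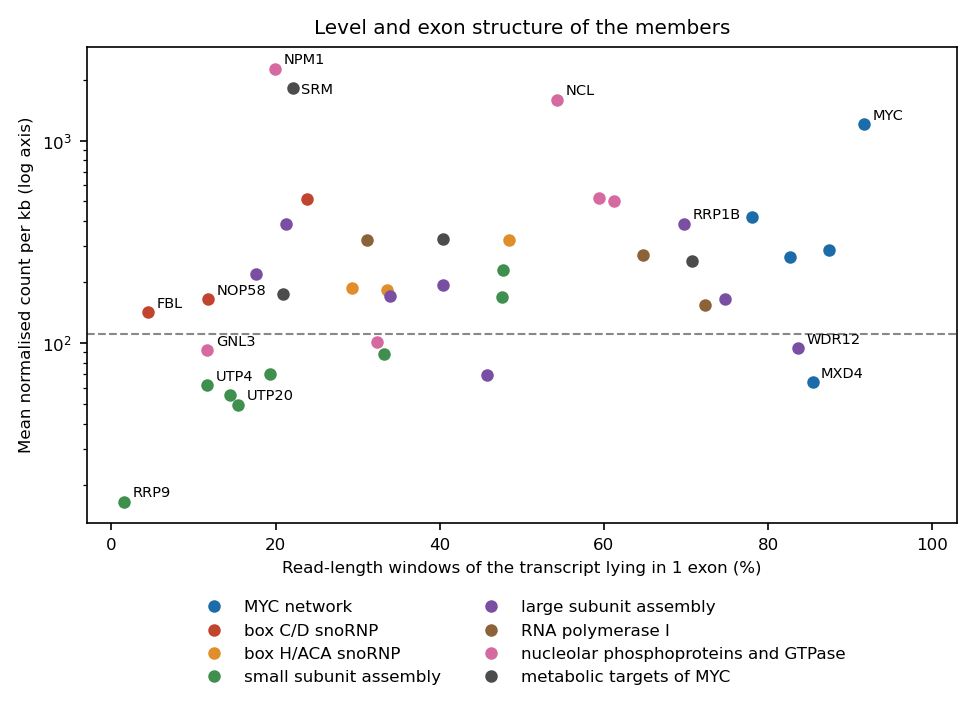
Level per kb (log axis) of each of the 40 genes against the percentage of 150-base windows of its canonical transcript that lie in 1 exon, coloured by role; the dashed line is the median of the table. RRP9 is at the lower left, the other low small subunit genes sit between 11.7% and 33.3%, and MYC is at the upper right, while NPM1 and SRM are high with few such windows.

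8 of the 40 genes span annotated snoRNA genes on their own strand (20.0%), against 2.80% of the protein coding genes of the table. Some genes of ribosome assembly thus also hold the guide RNAs of the snoRNPs described above. NCL, NOP56, NOP58 and GNL3 hold 3 annotated snoRNAs each, WDR43, DKC1 and PPAN 2 each, and ODC1 holds SNORA80B. The hosts ranged from PPAN at 69.5 to NCL at 1592 per kb, with a median of 205 per kb, and the 32 other members had a median of 190.3 per kb. DANCR, the gene targeted by the siRNA, holds 1 annotated snoRNA, and its pooled mean was 426 normalised counts, or 108 per kb. This mean takes in the 3 siDANCR libraries, so it does not give the level of DANCR in control cells. The knockdown of DANCR was not checked here, since there are no values for single libraries and the authors' comparison columns were not used.

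In 12 of the 40, another protein coding gene overlaps the member's span, on the opposite strand in 10. These include MAX with FNTB, NHP2 with RMND5B, UTP4 with CHTF8, NIP7 with COG8 and GNL3 with PBRM1. The libraries marked strand, but whether counting used it is not given, so these values are uncertain. In 3 members, PPAN, NOP2 and UTP4 (with SNTB2), a gene overlaps on the same strand, which strand use cannot resolve. The share of the table's genes with an overlap was not computed.

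The cells carried the marks of their lineage. Of 7 melanocyte markers, 6 were in the table, all among its higher levels, from TYR at 1219 to PMEL at 11535 per kb, with MITF at 2179 per kb, and TYRP1 was not among the genes. Of the 15 markers of keratinocytes, fibroblasts, endothelium and leukocytes, only KRT10 (135 per kb), LUM (242 per kb) and VWF (2.75 per kb) were in it.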

How the data were processed

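Poly(A) RNA of SK-MEL-28 cells (siDANCR 3 libraries, control 3) was sequenced as 150-base read pairs from strand-marked (dUTP) libraries. The labels give DMEM as the medium and the study's methods RPMI. Per the submitters' processing notes, Trim Galore 0.4.4, Bowtie 1.1.2, DESeq2 and hg19 (GRCh37) were used. Not given in the sources used here: the counting tool, annotation, strand use and DESeq2 version.

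The authors deposited, for 13449 genes, a mean of normalised counts across the 6 libraries, a signal scaled for depth and not for length, which is what was used. The table also holds the authors' log2 fold change, its standard error, test statistic, p-value and adjusted p-value, and a smaller sheet repeats these for selected genes. Those columns and that sheet were not used. There are 0 columns of values per library, so the planned count test of siDANCR against control could not be made, nor depth or replicate spread computed.

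Gene IDs were matched to GENCODE v44 lifted to GRCh37, which left 288 without a symbol. The length was that of the canonical transcript, or of the longest where none is tagged (132 genes, BOP1 and MLXIP among them). Promoters came from RefSeq. All members are named, and of each list of other pathway genes the highest and lowest per kb, with the MYC paralogs and MAX partners. The members and lists were chosen with earlier results of these data known. Functions were tested on simulated data. Tools were numpy 2.4.6, pandas 2.3.3 and matplotlib 3.10.9 under Python 3.11.15.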

Additional observations from a re-analysis of the deposited data

How the results depend on the processing

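No paired analysis was possible because there are no values per library, so the edgeR and DESeq2 fits that were planned, other size factors, the filter on low counts and leaving out each replicate were not run. The members above the table's median numbered 29 with the canonical transcript and between 26 (no length correction) and 35 (positions where a 150-base read fits in 1 exon) otherwise. The members' median was 1.71 times the table's, and between 1.79 and 1.98 times with the union of exons, the longest transcript or no length correction. With the 1-exon positions it was 2.86 times. Those positions were added after seeing the data, leave out RRP9 and FBL, and raise genes with a small share of them by construction. The distance of NHP2 over DKC1 was 1.76-fold, against 3.47-fold with the union of exons and 3.65-fold with the longest transcript. That of PES1 over WDR12 was 4.11-fold, against 2.45-fold with the union of exons and 16.9-fold with the 1-exon positions. The cause was not tested. Members with an E-box numbered 19, and 9 with only the bases before the start site. Over the table's genes with a promoter the shares were 13.0% and 11.6%. Of the members' 20 E-boxes, 10 lay after the start site. In all, 19 of the 25 alternatives moved a value by at most 1.5 times. Among them are all the counts of members above the table's median, which from 29 could not rise past that limit. The complexes and the MYC network genes kept their highest and lowest gene with the canonical length, the union of exons and the longest transcript. With the 1-exon positions the MYC network genes and the complexes other than box C/D did. Box C/D had no value for FBL. Orders of single genes turned more often. With the union of exons and the longest transcript, MAX over MNT (1.46) was 0.83 and 0.93, MAX over MXI1 (1.57) was 0.86 and 1.00, NPM1 over NCL (1.42) was 0.51 and 0.56, NPM1 over SRM (1.25) was 0.30 and 0.46, and POLR1D over POLR1F (4.50) was 0.26 and 0.68. With the 1-exon positions, MYC over MLXIP (1.08) was 0.94 and PES1 over RRP1B (1.00) was 3.40. RRP9 had the lowest mean of the members, 25.4 normalised counts, and the smallest share of 1-exon positions, 1.58%. Whether depth, exon structure or its own level set that mean was not tested.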
